A study of Arabidopsis thaliana with 11 samples.

Results

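Endosperm dissected from Arabidopsis thaliana seeds was sequenced as 2 kinds of preparation, named pure and full endosperm, and the comparison of these preparations across all genes is described here. It rests on 4 of the 11 libraries of the study, chosen by their titles: 1 pure and 1 full library from the cross Col × Ler, and 1 of each from the reverse cross Ler × Col. The mother is written first. Both parents were wild type, of the accessions Columbia (Col) and Landsberg erecta (Ler), and seeds were collected 7 to 9 days after pollination. The labels do not say how the pure and full preparations were made to differ, nor whether libraries came from separate plants. Each library is 1 pool of dissected tissue, and the 2 crosses serve as the replicates of a preparation. The p-values rest on the spread among these 4 libraries alone, part of which may be technical. Each test also borrowed much of a gene's spread from all genes together.

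A seed holds tissues of different parentage. The embryo carries the genomes of both parents in equal dose, the endosperm, which feeds it, holds the mother's genome in double and the father's in single dose, and the seed coat grows from the mother's ovule and carries no paternal genome. RNA of the seed coat therefore adds maternal reads alone, while a change within the endosperm or the embryo is seen in the reads of both parents. In the endosperm, imprinted genes depart from the dose ratio because 1 parental copy is more active than the other.

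Reads were counted per gene only where they told Col from Ler, and each read was assigned to the mother or the father by the direction of the cross. The pure libraries held 2700162 (Col × Ler) and 2840412 (Ler × Col) such reads, and the full libraries 4562509 and 4828301. Where 4 values are given below, they are the pure Col × Ler, pure Ler × Col, full Col × Ler and full Ler × Col libraries, in that order and in CPM unless stated. CPM is the number of a gene's reads per 1000000 assigned reads of the library, and the maternal and paternal CPM of a gene add up to its total. They are not divided by gene length, so levels were compared between libraries and not between genes. Fold changes are log2 values of full over pure ± standard error, with 2 libraries per preparation. They were fitted with edgeR's quasi-likelihood test, with the cross as a block and with scaling factors (TMM) of 0.956, 0.859, 1.04 and 1.18, so that they differ somewhat from ratios of the printed levels. A gene was called higher or lower at a Benjamini-Hochberg adjusted p under 0.05.

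The maternal share of all assigned reads was higher in full than in pure endosperm in both crosses. It was 69.5% in the pure and 73.7% in the full library of Col × Ler, and 66.9% and 71.5% in those of Ler × Col. The gaps were 4.21 and 4.66 percentage points. The exact (Clopper-Pearson) 95% intervals, which cover counting error only, ran from 69.47% to 69.58% and from 73.69% to 73.77% in Col × Ler, and from 66.81% to 66.92% and from 71.49% to 71.57% in Ler × Col. All 4 shares lay above the 66.7% of a double maternal dose, and the preparations did not overlap. With 2 libraries against 2, an exact permutation test cannot give a p below 0.333. Genes of the seed coat pigment, mucilage and cuticle lists described below made up 0.637% and 0.359% of the reads of pure and 1.6% and 1.22% of those of full endosperm. Without these genes the shares were 69.4%, 66.8%, 73.3% and 71.2%, and the preparations still did not overlap. The wild-type embryo libraries had maternal shares of 52.9% (Col × Ler) and 49.4% (Ler × Col).

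Of 28523 genes in the tables, 9306 had enough reads to be tested, and the preparations differed in many of them. On total reads, 1110 genes (11.9% of those tested) were called higher and 1141 (12.3%) lower in full endosperm. On maternal reads alone, 956 genes (10.3%) were called higher and 742 (7.97%) lower. On paternal reads alone the balance was turned, with 280 genes (3.01%) called higher and 1120 (12.0%) lower. The median log2 change over all genes tested was 0.02 for total, 0.13 for maternal and −0.25 for paternal reads. These splits depend on the scaling. With library totals alone, 1716 genes were higher and 754 lower on total reads, the share of higher calls was 69.5% against 49.3%, and the median gene moved by 0.31. With TMM factors of each parent's own reads, 791 genes were higher and 877 lower on maternal reads, and 436 higher and 541 lower on paternal reads. Without the cross as a block, edgeR called 710 genes higher and 750 lower on total reads and none on maternal or paternal reads, with 1776 and 1366 genes at an unadjusted p under 0.05. In bulk RNA, fewer cells of a type and less RNA per cell cannot be told apart, and a gene's CPM also falls where other RNA takes more of the library.

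**Figure D1:**
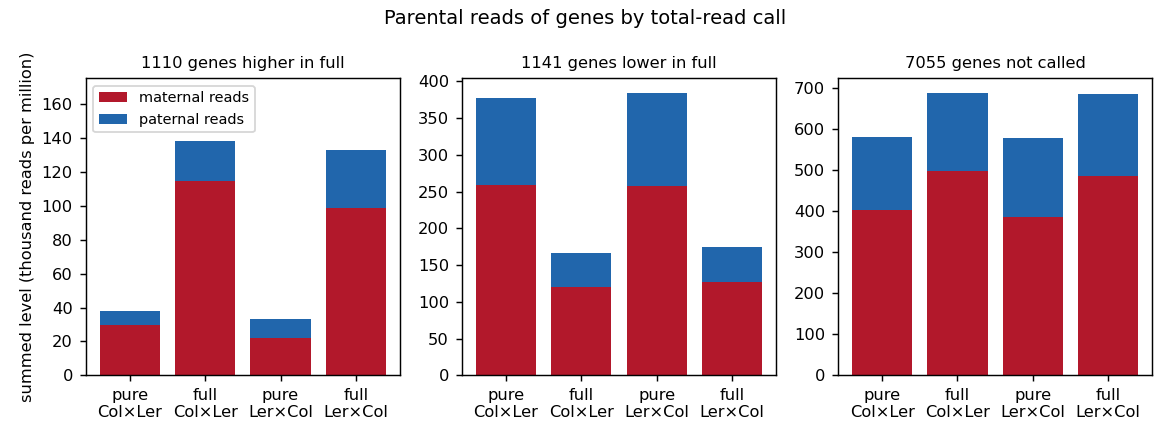
Summed CPM (drawn in units of 1000 CPM, vertical axis) of the genes called higher, called lower and not called on total reads, in each of the 4 libraries, with maternal reads in red below and paternal reads in blue above. The higher genes rose mainly in maternal reads, from 29999 to 114419 in Col × Ler, while the lower genes fell in the reads of both parents.

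The genes called higher gained mostly maternal reads. Together they took 38232 and 33183 CPM in the pure libraries and 138221 and 132963 in the full ones. Maternal reads made up 84.4% of that gain in Col × Ler and 76.5% in Ler × Col. The 7055 genes not called also gained as a sum, and 86.6% and 92.9% of that gain was maternal. EPR1, described below, is 1 of them. It took 8.62% of the reads of pure and 20.7% of full Col × Ler, and 13.1% and 14.4% in Ler × Col. The whole uncalled set went from 580375 to 688905 CPM in Col × Ler. In that cross the rise of EPR1 was larger than that of the set, and the other uncalled genes together fell. Of the 1110 genes, 886 were also called higher on maternal reads, 263 on paternal reads and 229 on both. The genes called lower had taken 377197 and 384817 CPM in pure endosperm and took 166577 and 175014 in full endosperm. Maternal reads were 65.6% and 62.8% of that loss, and of the 1141 genes 725 were called lower on maternal, 828 on paternal and 577 on both parents' reads. These counts share the reads of the total-read call and are a description of it.

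Maternal shares per gene were compared where every library held at least 20 reads of the gene. The median share went from 70.1% in pure to 76.6% in full endosperm for 454 genes called higher, from 66.2% to 69.8% for 980 called lower, and from 67.3% to 72.4% for 4010 genes not called. All 3 sets thus had a higher median share in full endosperm. Shares of at least 95% in full endosperm were held by 13.7% of the genes called higher, 0.816% of those called lower and 1.80% of those not called.

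**Figure D2:**
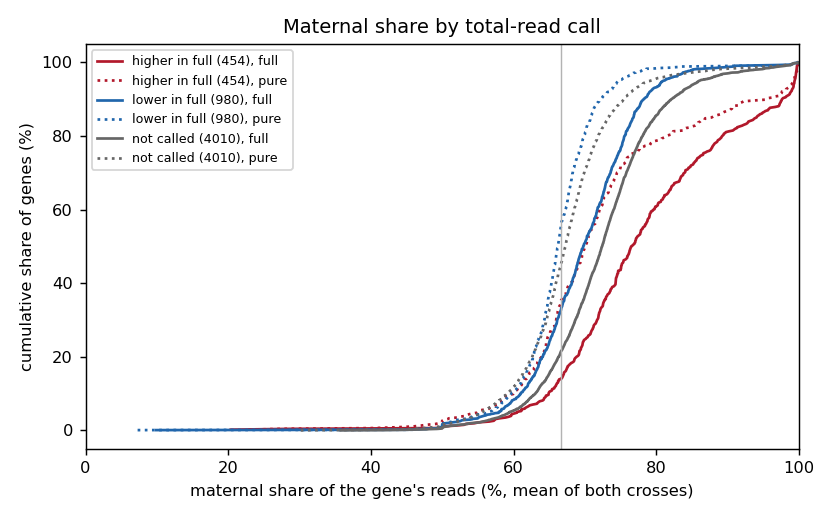
Cumulative share of genes (%, vertical axis) by their maternal share (%, mean of both crosses, horizontal axis) in full (solid) and pure (dotted) endosperm, for genes higher (red), lower (blue) and not called (grey) on total reads; the vertical line is the 66.7% of a double maternal dose. Each solid line lies to the right of its dotted line over most of its range, and the red solid line has the longest upper tail, with 13.7% of genes at 95% or more.

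Some of the genes that colour the seed coat rose in maternal reads. Over 15 gene lists, 112 of 220 genes could be tested and 62 had no read in the 4 libraries, which says nothing of their level where Col and Ler do not differ. Over all genes tested, 11.9% were called higher and 12.3% lower on total reads. Counts of called members of the lists and annotated families below are to be read beside these shares, and say little where few genes were tested. Proanthocyanidins are made in the inner layer of the seed coat, and 14 of 22 listed genes of this pathway could be tested. Of these, 5 were called higher and 1 lower on total reads, with a median log2 change of 1.22 against 0.02 over all genes, and 5 were called higher, none lower and 9 not at all on maternal reads. The list's summed level was 3405 and 1693 in pure and 11682 and 8492 in full endosperm, and it was 397 and 532 in the embryo libraries. Most of this sum was 1 gene, TT10, in each of the 4 libraries. The summed maternal share was at least 98.0% in all 4 libraries, so pure endosperm also held reads of this kind, chiefly of TT10.

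TT10 encodes a laccase that oxidises flavonoids in the seed coat. Its levels were 2901, 1489, 10719 and 7559, and its maternal shares were 99.8%, 99.4%, 99.8% and 99.6%. Both full libraries lay above both pure ones, with a log2 change of 1.83 ± 0.31 (edgeR, adjusted p = 0.00199). TT10 was also the 1 gene of the list called higher on paternal reads, where the other 13 tested genes gave no call. Its paternal log2 change lay between 1.12 and 2.11 with libraries left out in turn. The paternal call was lost without either pure or the full Col × Ler library. The source of these few paternal reads was not tested. TT8, a bHLH transcription factor that switches on the pathway, had levels of 160, 68.0, 387 and 327 (1.48 ± 0.29, adjusted p = 0.00387). BAN, the anthocyanidin reductase that makes the building blocks of the pigment, had 55.9, 9.15, 161 and 76.2 (1.93 ± 0.34, adjusted p = 0.00309). The MADS-box gene TT16 had 4.82, 3.87, 21.3 and 12.0 (1.62 ± 0.46, adjusted p = 0.0250). For TT8 and BAN at most 1.24 CPM of paternal reads were seen in any library.

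F3H, flavanone 3-hydroxylase of the shared flavonoid pathway, rose too on total reads. Far more of its reads were paternal, but its paternal reads alone gave no call. Its levels were 55.9, 40.5, 114 and 128, with maternal shares between 68.9% and 75.3% (1.06 ± 0.28, adjusted p = 0.0185). DFR and LDOX, later enzymes of the pathway, had maternal shares of at least 97.5% and log2 changes of 1.6 ± 0.55 and 1.28 ± 0.63 that did not pass the test (edgeR, adjusted p = 0.0931 and 0.210). UGT80B1, a sterol glucosyltransferase, was the pathway list's member called lower (−1.08 ± 0.34, adjusted p = 0.0391). Libraries were left out in turn in a fit that included the embryo libraries. The calls on total reads of TT10, TT8, BAN, TT16, F3H and UGT80B1 were then lost without either pure library, those of TT16 and UGT80B1 also without full Col × Ler, and those of F3H and UGT80B1 without full Ler × Col.

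**Figure D3:**
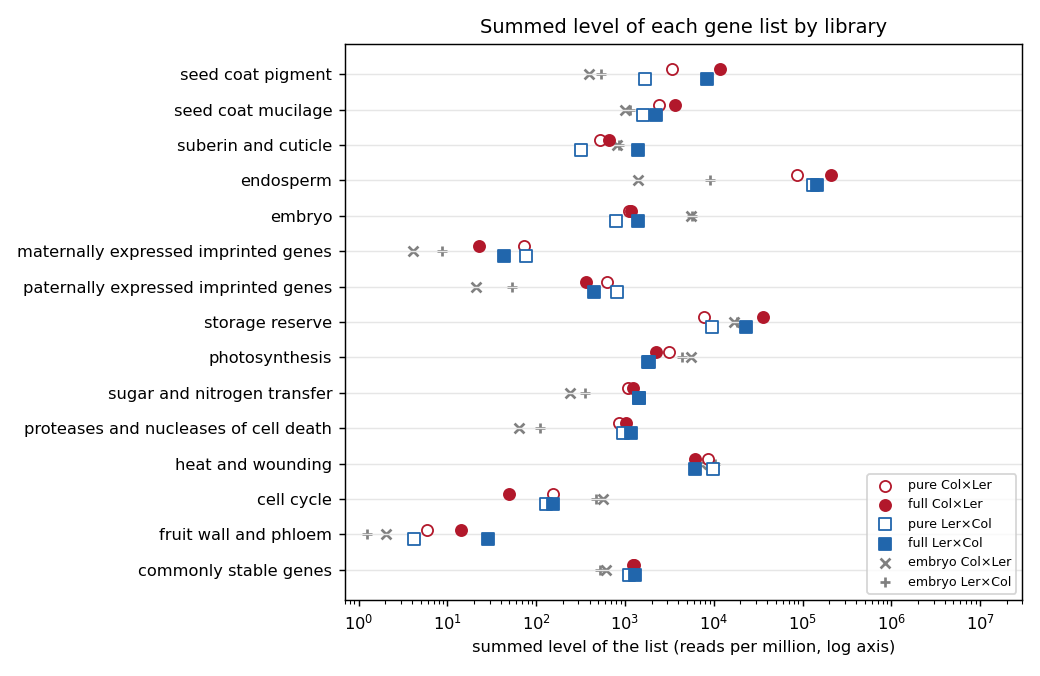
Summed level of each of the 15 gene lists (CPM, logarithmic axis) in pure (open) and full (filled) endosperm of Col × Ler (red circles) and Ler × Col (blue squares), with the embryo libraries in grey. The seed coat pigment list lies between 1693 and 3405 in pure and between 8492 and 11682 in full endosperm, and the storage reserve list shows a gap of the same direction.

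Mucilage genes of the outer seed coat did not move as one. Of 20 listed genes 12 were tested, with 2 called higher and 2 lower and a median log2 change of 0.08. These calls were 16.7% each way, near the 11.9% and 12.3% over all genes tested. KNAT7, a homeobox gene of secondary wall formation, had levels of 67.0, 43.7, 181 and 189 with maternal shares of at least 98.4% (1.49 ± 0.28, edgeR, adjusted p = 0.00357). GL2, a homeodomain gene of the seed epidermis, had 427, 216, 414 and 297 and maternal shares of at least 97.7% (−0.07 ± 0.26, adjusted p = 0.866), so that its pure and full libraries overlapped. MUM2, a β-galactosidase that modifies mucilage, had 163, 137, 93.8 and 216 (−0.35 ± 0.32, adjusted p = 0.450). PMEI6 (AT2G47670), a pectin methylesterase inhibitor, and SOS5, a fasciclin-like arabinogalactan protein, were called lower, with log2 changes of −1.70 ± 0.49 and −1.81 ± 0.50 (adjusted p = 0.0261 and 0.0242). KNAT7 lost its call without either pure library, and PMEI6 and SOS5 theirs without either pure library or the full Ler × Col library.

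NAM, a NAC transcription factor of the seed coat, was read almost wholly from 1 allele. It had 1 and 2 reads in the pure libraries, and 20.4 and 61.1 CPM in the full ones. In full Col × Ler these were 93 maternal and no paternal reads, and in full Ler × Col 2 maternal and 293 paternal reads, so they followed the Col allele in both crosses. Its call on total reads (edgeR, adjusted p = 0.000122) held with any library left out, but its parental reads cannot be assigned to a tissue by parent.

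Lipid polymers of the coat and the cuticle were read from few genes. Of 16 listed genes 7 were tested, and 2 were called higher and none lower, with a median of 1.87. Their summed level was 527 and 319 in pure and 666 and 1407 in full endosperm. It was 822 and 854 in the embryo libraries. KCS2, which lengthens fatty acids for suberin, had levels of 1.85, 3.52, 70.4 and 307 (5.65 ± 0.40, edgeR, adjusted p = 1.85e-05). In full endosperm 97.5% and 95.4% of its reads were maternal. ABCG20, a suberin transporter, had 0.370, 1.06, 10.5 and 35.6 (4.59 ± 0.59, adjusted p = 0.000445), a call lost without the pure Ler × Col library. The full Ler × Col library was the highest for both genes.

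Several suberin genes were seen almost only in that library. FAR1 and FAR4, fatty acyl reductases, and GPAT5, an acyltransferase of suberin, had no read in the other 3 libraries and 30.7, 6.21 and 3.94 CPM in full Ler × Col. A count of 0 allows up to 1.11, 1.06 and 0.658 CPM in those 3 libraries. ASFT (AT5G41040), a feruloyl transferase of suberin, had 1.11, 0.704, 1.53 and 34.2. These 4 genes did not pass the filter for testing, which asked for a minimum count of 10, scaled to library size, in more than 1 library. CYP86B1, a fatty acid hydroxylase, had 15.6, 12.0, 13.2 and 312, and its total reads gave no call (2.07 ± 2.05, edgeR, adjusted p = 0.594). Enzymes annotated as 3-ketoacyl-CoA synthases, the family of KCS2, were looked at after values were seen: of 11 tested, 6 were called higher and none lower, with a median of 1.72. Their summed level was 227 and 171 in pure and 485 and 1634 in full endosperm. It was 875 and 719 in the embryo libraries.

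Among all genes, those with the strongest rise included several read almost wholly from the mother. GER2, a germin-like protein, had levels of 9.63, 1.76, 533 and 345, and 99.6% of its reads in each full library were maternal (6.19 ± 0.41, edgeR, adjusted p = 1.85e-05). Close relatives of this gene make its count uncertain. RBL2, a rhomboid protease, had 17.8, 16.6, 263 and 535 (4.17 ± 0.33, adjusted p = 4.73e-05), with 99.3% and 99.5% maternal reads in full endosperm. AT1G11170 had 4.07, 4.93, 182 and 186 (5.06 ± 0.36, adjusted p = 1.85e-05), and AT3G26440, a putative transmembrane protein, had 1.48, 1.06, 57.2 and 60.1 (5.23 ± 0.46, adjusted p = 8.44e-05). In all 4 genes the pure libraries lay far below the full ones.

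Other genes of this kind had very few reads in pure endosperm or stood out in 1 library. The peroxidase AT2G38380 had 1 read in the pure Col × Ler library, none in the pure Ler × Col library and 30.03 and 149 CPM in full endosperm, of which all but 1 read were maternal. AT4G13840, an acyltransferase, had 592, 93.7, 6593 and 849 (3.05 ± 0.32, edgeR, adjusted p = 0.000171), and its full Col × Ler library stood far above the rest. Class III peroxidases, chosen by annotation after values were seen, had 5 of 13 tested members called higher and none lower, although their summed level was 17311 and 12829 in pure and 12329 and 9928 in full endosperm. The calls on total reads of GER2, RBL2, AT1G11170, AT3G26440, AT2G38380, NAM and KCS2 held with each library left out in turn, whereas that of AT4G13840 was lost without either pure library or the full Col × Ler library.

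A second group rose in the reads of both parents. AT1G14950, of a lipid transport superfamily, had total levels of 3.33, 7.39, 384 and 2099, maternal levels of 2.22, 4.23, 247 and 1417, and paternal levels of 1.11, 3.17, 137 and 682. Maternal and paternal reads rose alike, by 7.43 ± 0.46 and 7.13 ± 0.51 (edgeR, adjusted p = 1.24e-05 and 3.68e-26), and the change of their ratio was 0.38 ± 0.59 (adjusted p = 0.934). All tests took much of a gene's spread from all genes together, and the paternal and ratio tests almost wholly. Median prior degrees of freedom were 11.0 for total, 11.2 for maternal and 165.5 for paternal reads, and without limit for the ratio. The p-values of different tests are therefore not on a par. No read of this gene was seen in the embryo libraries. ACR7, an ACT domain protein, had 9.26, 9.86, 295 and 405, and 88.0% or more of its reads were maternal in each library. Its paternal reads rose by 4.79 ± 0.58 (edgeR, adjusted p = 4.10e-11), a change that rests on very few paternal reads in the pure libraries. Paternal reads of the thionin AT2G15010 and the peroxidase AT1G71695 were called higher as well, by 4.58 ± 0.55 and 3.50 ± 0.40 (adjusted p = 5.97e-11 and 3.73e-12).

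Several storage reserve genes also rose in both parents' reads. Such genes encode the proteins and oil-body coats that a seed lays down as it fills, and 6 of 12 listed genes were tested. Of these, 4 were called higher and none lower on total reads, and 4 higher and none lower on paternal reads, with medians of 1.66 and 1.76. Their summed level was 7828 and 9521 in pure, 36003 and 23098 in full endosperm, and 16866 and 18270 in the embryo libraries. OLEO1, described below, held most of the sum in pure and full endosperm. The summed maternal share was 76.2% and 80.3% in pure and full Col × Ler but 51.5% and 40.9% in Ler × Col. This share, chiefly of OLEO1, thus followed the cross more than the preparation.

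SESA4, a 2S albumin, had total levels of 61.9, 136, 454 and 883, of which paternal reads were 14.8, 72.5, 126 and 382. Its paternal reads rose by 2.42 ± 0.36 (edgeR, adjusted p = 6.07e-08) and its total by 2.50 ± 0.29 (adjusted p = 0.000258). CRA1, a 12S cruciferin, had 1529, 251, 3660 and 1972, and its paternal reads rose by 2.04 ± 0.38 (adjusted p = 1.98e-05). OLEO1, the main oil-body oleosin, had 5957, 8814, 31326 and 19814 (1.5 ± 0.43, adjusted p = 0.0293), whereas OLEO2 (0.36 ± 0.30, adjusted p = 0.408) and OLEO4 (0.82 ± 0.38, adjusted p = 0.133) gave no call. Near-identical albumin genes make the count of SESA3, the remaining call, uncertain. The total call of SESA4 was lost without the pure Col × Ler library, those of CRA1 and SESA3 without the pure Ler × Col library, and that of OLEO1 without either pure or the full Col × Ler library.

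Maturation genes chosen by annotation after values were seen moved less uniformly: of 29 tested genes for late embryogenesis abundant, dehydrin and seed maturation proteins, 8 were called higher and 3 lower. These were 27.6% and 10.3% of them, beside 11.9% and 12.3% over all genes tested. The dehydrin AT2G21490 had levels of 229, 154, 1400 and 1031, and its maternal and paternal reads rose by 2.34 ± 0.31 and 2.48 ± 0.36 (edgeR, adjusted p = 0.000639 and 3.23e-08). AT5G44310, a late embryogenesis abundant protein, had 13.7, 13.0, 166 and 201 and maternal shares of 37.8%, 54.1%, 52.8% and 53.3%. The cupin AT2G28490 had 65.6, 72.5, 601 and 575, and its paternal reads rose by 2.88 ± 0.36 (adjusted p = 1.67e-10). ATS3, named for its expression in embryos, had 189, 115, 2196 and 1166 (3.15 ± 0.31, adjusted p = 0.000128). None of these 4 genes had a read in the library whose title carries LCM, which held 358142 reads in all, and in the embryo libraries they stood between 323 and 1221 CPM. The calls of the last 3 genes on total reads held with each library left out, and the dehydrin's was lost without either pure library.

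Embryo genes were measured beside these reserves. Of 24 listed embryo genes 20 had a read in the 4 libraries and 12 were tested. Of these, 4 were called higher and 2 lower, with a median log2 change of 0.35 against 0.02 over all genes. The list's summed level was 1111 and 802 in pure, 1186 and 1420 in full endosperm, and 5613 and 5691 in the embryo libraries. Most of the embryo sums and a large part of the pure ones were 1 gene, AS1, which fell. The other members together rose in both crosses. SHR, a GRAS transcription factor of the root, had 3.70, 3.17, 5.04 and 5.18 against 80.9 and 38.4 in embryo. AS1, a MYB regulator of leaf primordia that stood at 3278 and 3360 in embryo, fell from 520 and 321 in pure to 170 and 185 in full endosperm (−1.49 ± 0.28, edgeR, adjusted p = 0.00316).

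Within the embryo list, 4 genes rose. ATML1, a homeobox gene of the epidermis, had 20.7, 13.0, 56.8 and 73.7 (1.68 ± 0.32, edgeR, adjusted p = 0.00394). GSO2, a receptor kinase needed for the embryo's cuticle, had 180, 110, 389 and 573 (1.46 ± 0.30, adjusted p = 0.00614). SCR and FUS3, regulators of the root and of seed maturation, rose by 1.00 ± 0.27 and 0.97 ± 0.30 (adjusted p = 0.0197 and 0.0332), while LEC1, another maturation regulator, fell by 1.74 ± 0.40 on the log2 scale (adjusted p = 0.00959). Each of these calls, and that of AS1, was lost without either pure library, and those of FUS3 and LEC1 also without full Col × Ler. The part of embryo RNA in the reserve transcripts was not tested.

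**Figure D4:**
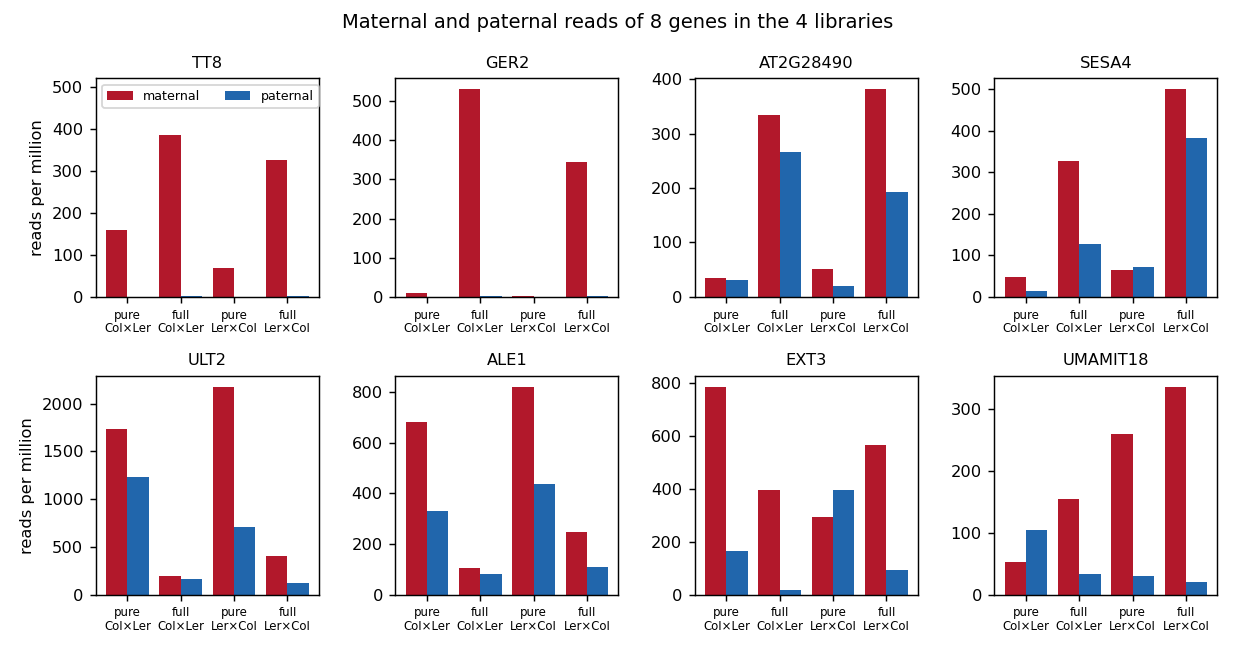
Maternal (red) and paternal (blue) CPM of 8 genes in the 4 libraries, each panel with its own axis from 0. TT8 and GER2 rose in maternal reads with next to no paternal reads, AT2G28490 and SESA4 rose in both parents' reads, ULT2 and ALE1 fell in both, and EXT3 and UMAMIT18 fell in paternal reads while their maternal share rose.

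Genes lower in full endosperm mostly lost reads of both parents. AGP24, an arabinogalactan protein, had 69.3, 83.4, 2.41 and 4.14, and fell in both parents' reads (maternal −5.06 ± 0.42, paternal −4.47 ± 0.51, edgeR, adjusted p = 5.76e-05 and 3.18e-12). ULT2, an ULTRAPETALA-type developmental regulator, had 2968, 2883, 356 and 526 (total −3.04 ± 0.31, adjusted p = 0.000141), and its maternal shares of 58.4%, 75.5%, 55.0% and 77.3% followed the cross rather than the preparation. DAF1, of the F-box family, had 112, 107, 7.67 and 11.0 (−3.85 ± 0.31, adjusted p = 4.73e-05). RAD23C, a shuttle for ubiquitinated proteins, had 172, 158, 24.8 and 23.6 (−3.05 ± 0.30, adjusted p = 0.000128). All 4 stood at 156 or more in the LCM-titled library, on the side of pure endosperm.

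The same held for further strongly lowered genes. GRP14, a glycine-rich protein, had 630, 578, 130 and 69.4, AT3G49050, an α/β-hydrolase, had 1685, 1335, 313 and 198, and the protein kinase CIPK4 had 174, 177, 37.5 and 27.3. Their log2 changes were −2.95 ± 0.34, −2.87 ± 0.31 and −2.74 ± 0.32 (edgeR, adjusted p = 0.000323, 0.000191 and 0.000277). In the LCM-titled library they stood at 846, 1480 and 377. The calls of these 3 genes and of AGP24, ULT2, DAF1 and RAD23C on total, maternal and paternal reads held with each library left out in turn. LCR29, a small cysteine-rich protein, had 57.0, 29.6, 2.85 and 1.86, all but 1 of its reads from the Col allele.

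Of 17 listed endosperm genes 6 were tested, with 1 called higher and 1 lower. These calls were 16.7% each way, near the 11.9% and 12.3% over all genes tested. ALE1, an endosperm subtilase that acts on the embryo's surface, had 1014, 1261, 187 and 356 and fell in both parents' reads (maternal −2.49 ± 0.32, paternal −2.32 ± 0.36, edgeR, adjusted p = 0.000565 and 1.40e-07). The change of its parental ratio was −0.17 ± 0.29 (adjusted p = 0.947). EPR1, an extensin-like gene of the endosperm with similar neighbours that make its count uncertain, took a large share of all reads, at 86198, 131002, 207133 and 143862, and gave no call (0.42 ± 0.47, adjusted p = 0.558). It took 1220 and 8781 in the embryo libraries. The total call of ALE1 was lost without the pure Col × Ler library.

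Few genes known to be imprinted had enough reads, and none of the 6 tested was called for a change of its parental ratio. VIM5, a paternally expressed gene for a methylcytosine-binding protein, had 548, 740, 348 and 363 (−1.12 ± 0.29, edgeR, adjusted p = 0.0168), with maternal shares of 7.71%, 6.90%, 8.50% and 11.3%. YUC10, a paternally expressed auxin synthesis gene, had 7.41, 14.8, 18.9 and 55.3 (1.35 ± 0.36, adjusted p = 0.0181). HDG9, a maternally expressed homeodomain gene, had 15.2, 51.1, 1.32 and 14.5 (−2.73 ± 0.42, adjusted p = 0.00139), with 97.6%, 97.2%, 83.3% and 95.7% maternal reads. HDG3, a paternally expressed relative, had 60.7, 48.2, 1.1 and 25.1, both full libraries below both pure ones, without passing the test (−3.01 ± 1.52, adjusted p = 0.327). VIM5 and YUC10 lost their calls without either pure or the full Ler × Col library, and HDG9 without either pure library.

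In sets of genes for growth and chloroplasts, more members were called lower than higher. Over all genes tested, 12.3% were called lower and 11.9% higher. The cell cycle, histone, ribosomal protein and photosynthesis sets had 33.3%, 35.3%, 25.8% and 45.5% called lower. Of the last 2 sets, 8.61% and 9.09% were called higher. Of 6 tested cell cycle genes 2 were called lower and none higher: MCM3 and MCM7 (AT4G02060), of the helicase that opens DNA for replication, fell by 1.76 ± 0.41 and 1.27 ± 0.36 on the log2 scale (edgeR, adjusted p = 0.0101 and 0.0286). Of 17 histone genes tested, chosen by annotation after values were seen like the ribosomal proteins, 6 were called lower and none higher, with a median of −1.26. Of 151 ribosomal protein genes, 39 were called lower and 13 higher, with a median of −0.47, but their summed level went from 22962 to 14145 in Col × Ler and from 17852 to 19550 in Ler × Col. Histones took 1322 and 1183 in pure and 464 and 970 in full endosperm. Of 11 tested photosynthesis genes 5 were called lower and 1 higher, with a median of −0.72. LHCB2.1, a light-harvesting protein of photosystem II, had 57.0, 43.3, 23.9 and 11.0 (−1.88 ± 0.35, adjusted p = 0.00362), and LHCA3, of photosystem I, had 68.1, 48.6, 24.6 and 26.3 (−1.46 ± 0.29, adjusted p = 0.00479). LHCA2 went the other way, with 93.3, 61.3, 234 and 183 (1.17 ± 0.27, adjusted p = 0.0101). The calls of MCM3, MCM7, LHCB2.1, LHCA3 and LHCA2 were lost without either pure library, and those of MCM3 and MCM7 also without full Col × Ler.

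Heat shock transcripts took a large part of the reads, and more of them were called lower than higher. The annotated heat shock proteins, chosen after values were seen, took 78002 and 93875 CPM in pure, 39257 and 38888 in full endosperm, 52654 and 79322 in embryo and 11842 in the LCM-titled library. Of 36 tested, 15 were called lower (41.7%), 2 higher (5.56%) and 19 not at all, beside 12.3% lower and 11.9% higher over all genes tested. HSP17.4, a small heat shock protein with close relatives that make its count uncertain, had 50965, 64326, 23018 and 21125 (−1.66 ± 0.39, edgeR, adjusted p = 0.0107) and no read in the LCM-titled library. HSFA2, a transcription factor induced by heat, had 2246, 2255, 1043 and 1090 (−1.36 ± 0.29, adjusted p = 0.00624), against 3033 and 3820 in embryo and 2.79 in the LCM-titled library. Both genes thus stood high in pure and full endosperm and in embryo, and at or near 0 in the LCM-titled library. HSP17.4 and HSFA2 lost their calls without either pure library, and HSP17.4 also without full Ler × Col.

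Of 8 tested genes in the heat and wounding list 4 were called higher, 1, HSFA2, lower and 3 not at all. The list's summed level was 8712 and 9759 in pure and 6125 and 6229 in full endosperm. JAZ1, a repressor of jasmonate signalling, had 3.33, 3.17, 20.4 and 39.4 (2.84 ± 0.44, edgeR, adjusted p = 0.00124), and 86.0% and 94.2% of its reads in full endosperm were maternal. AOS, an enzyme of jasmonate synthesis, had 45.9, 9.86, 160 and 99.0 (2.22 ± 0.35, adjusted p = 0.00155). ZAT10 (AT1G27730) and LOX3, also stress-induced, were the other calls, at 8.28 CPM or less in every library. JAZ1 and AOS lost their calls without the pure Ler × Col library, and ZAT10 and LOX3 without either pure or the full Ler × Col library.

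The direct test of the maternal to paternal ratio named far fewer genes, 98 (1.05% of those tested) with a higher and 7 (0.0752%) with a lower ratio in full endosperm. In simulated data with 200 genes changed by 2 on the log2 scale, it recovered 54% of them. The tests of total, maternal and paternal reads recovered 83%, 78.5% and 83.5%, so counts of calls are not on a par between tests. The median change of this ratio over all genes was 0.35 on the log2 scale. Of the 98 genes, 59 had no call on total reads, 31 were called higher and 8 lower. On the parents' own reads, 38 were called higher in maternal and 41 lower in paternal reads. Their median maternal share went from 71.2% to 91.0%, values that the test itself used.

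**Figure D5:**
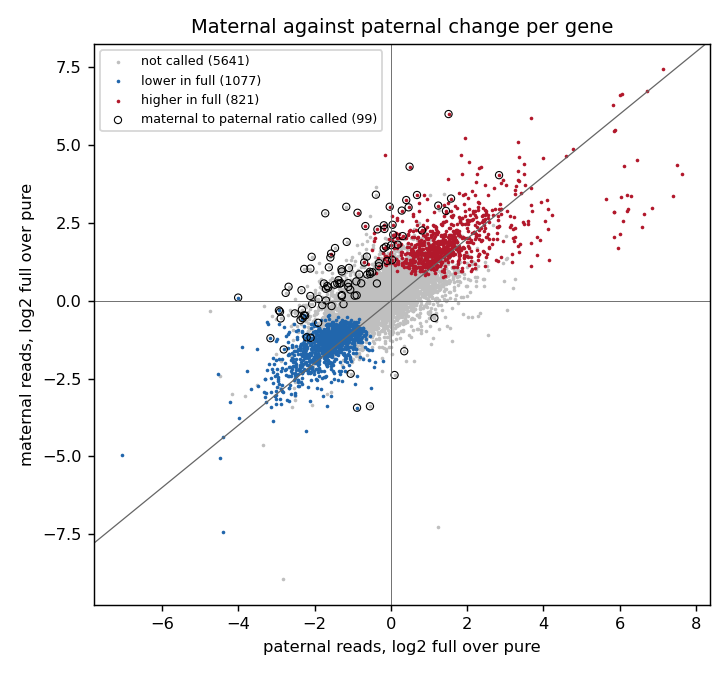
Log2 change of maternal reads (vertical axis) against that of paternal reads (horizontal axis), full over pure, for 7539 genes with at least 20 maternal and 20 paternal reads over the 4 libraries; red and blue mark genes called higher and lower on total reads, rings mark 99 genes called in the ratio test, and the diagonal marks equal change. Most rings lie above the diagonal; of 27 genes with a paternal log2 change over 5, 24 had no paternal read in pure endosperm, so that their values depend on the fit's prior count.

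The ratio calls described here are a few of the 98. EXT3, an extensin needed for new cell walls, had maternal levels of 788, 293, 394 and 567 and paternal levels of 164, 397, 17.1 and 93.6. Its maternal share rose from 82.8% to 95.8% in Col × Ler and from 42.4% to 85.8% in Ler × Col (ratio 2.67 ± 0.30, edgeR, adjusted p = 8.35e-15). The paternal reads alone fell by 2.93 ± 0.37 on the log2 scale (adjusted p = 1.35e-10), and the maternal reads gave no call (−0.31 ± 0.39, adjusted p = 0.626). CYP86B1, high in the full Ler × Col library, had maternal shares of 59.5%, 35.3%, 95% and 96.6% (5.11 ± 0.61, adjusted p = 1.12e-13). AT4G01610, a cysteine protease, had 78.7%, 75.6%, 96.7% and 96.2% (3.0 ± 0.38, adjusted p = 4.31e-12).

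Amino acid transporters of the MtN21 type, some of which carry nutrients from the mother's tissue to the seed, were among them. UMAMIT25 had maternal levels of 33.0, 37.7, 208 and 257 and paternal levels of 11.9, 15.5, 12.5 and 17.0, so that its maternal reads rose (2.43 ± 0.32, edgeR, adjusted p = 0.000699) and its paternal reads did not pass the test (−0.18 ± 0.41, adjusted p = 0.835). UMAMIT18 (AT1G44800) had maternal shares of 33.5%, 89.7%, 82.0% and 94.2% (ratio 2.07 ± 0.35, adjusted p = 3.49e-06), while its total reads gave no call (0.00 ± 0.26, adjusted p = 0.997). Its pure libraries differed between the crosses more than from the full ones. Of 13 tested genes annotated as MtN21-type transporters, chosen after values were seen, 7 were called higher and none lower on total reads.

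Other transport and household genes gave ratio calls of smaller size. NRT1.6, a nitrate transporter of developing seeds, had maternal shares of 91.3%, 55.0%, 98.2% and 73.7% (1.66 ± 0.40, edgeR, adjusted p = 0.00668). ABCG11, a transporter of cuticle lipids, had 80.1%, 69.1%, 93.4% and 89.6% (1.88 ± 0.32, adjusted p = 2.26e-06). UBQ3, a polyubiquitin gene, had 86.8%, 74.0%, 93.1% and 90.7% (1.41 ± 0.29, adjusted p = 0.000333). Among the 7 genes with a lower ratio, AT1G79170 had 69.7%, 91.3%, 48.1% and 42.2% (−2.47 ± 0.50, adjusted p = 0.000288). AT2G32150, a hydrolase, had 99.5%, 98.0%, 97.1% and 94.9% (−1.82 ± 0.40, adjusted p = 0.00175). The ratio calls of EXT3, CYP86B1, AT4G01610 and UMAMIT25 held with each library left out. UMAMIT18 lost its call without either Col × Ler library, ABCG11 and UBQ3 without the pure Ler × Col library, NRT1.6 without either pure or the full Col × Ler library, AT1G79170 without either Ler × Col library, and AT2G32150 without any 1 of the 4.

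Sugar and nitrogen transfer genes were mixed as a list. Of 10 tested, 3 were called higher and none lower on total reads, with a median of 0.08. SWEET12, a sugar exporter, had 8.15, 3.87, 26.5 and 79.3 (2.68 ± 0.54, edgeR, adjusted p = 0.0101), and UMAMIT29 had 1.11, 4.93, 17.8 and 45.2 (3.11 ± 0.46, adjusted p = 0.00104), both read almost wholly from the mother in full endosperm. SUS2, a sucrose synthase of the endosperm and embryo, rose in both parents' reads, with 90.0, 96.5, 281 and 222 in total (1.14 ± 0.29, adjusted p = 0.0169). SWEET12 lost its call without the pure Ler × Col library, UMAMIT29 without either pure library and SUS2 without either pure or the full Col × Ler library.

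Proteases and nucleases linked to cell death were mostly higher: of 8 tested, 5 were called higher (62.5%) and 1 lower (12.5%), with a median of 1.58. Over all genes tested these shares were 11.9% and 12.3%. γ-VPE, a vacuolar processing enzyme, had 23.7, 23.9, 147 and 352 (2.97 ± 0.33, edgeR, adjusted p = 0.000224), and its ratio was called as well (1.71 ± 0.45, adjusted p = 0.0199). BFN1, a nuclease of senescing cells, had 6.30, 3.17, 38.1 and 17.0 (2.25 ± 0.42, adjusted p = 0.00319). CEP1, a papain-type protease, had 263, 370, 177 and 181 and fell (−1.09 ± 0.29, adjusted p = 0.0194). β-VPE, another vacuolar processing enzyme, had no read in the pure libraries and 6.36 and 5.18 CPM in the full ones. Reads of both parents were among these, and its total call was lost without either pure library. The total call of γ-VPE held with each library left out, its ratio call was lost without either pure library or full Ler × Col, and those of BFN1 and CEP1 were lost without either pure library, that of CEP1 also without full Ler × Col.

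Fruit wall genes were low throughout: SHP1 and STK, MADS-box genes of the ovule and fruit, stayed at 14.7 CPM or less, and of 2 tested genes of that list SHP1 was called higher (3.4 ± 0.66, edgeR, adjusted p = 0.00412). Of 6 commonly stable genes tested, 2 were called higher and none lower, ACT8 by 1.12 ± 0.30 and TIP41 (AT4G34270) by 1.74 ± 0.44 (adjusted p = 0.0192 and 0.0183). These 3 calls were lost without either pure or the full Ler × Col library. When the LCM-titled library was added as a further pure library, edgeR called no gene on total reads (1710 genes had an unadjusted p under 0.05), 9 genes higher and none lower on maternal reads, 59 higher and 200 lower on paternal reads, and 87 higher and 3 lower for the ratio.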

How the data were processed

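The authors deposited, for each library, read counts per gene: per the readme deposited beside them, reads aligned to cDNA models, split by whether they had fewer mismatches to the Col or to the Ler sequence. Bowtie was used, per the submitters' processing notes; the sources used here do not give its version, the genome build, the annotation or the use of strand. Of 28523 gene identifiers, 27688 matched TAIR10.1, used for symbols and product names only.

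From these counts, both columns were summed and renamed maternal and paternal by cross. They were fitted with edgeR 4.0.16 (R 4.3.3; TMM, filterByExpr with a minimum count of 10, robust quasi-likelihood, Benjamini-Hochberg over 9306 genes). The cross direction, which pairs the 1 pure and 1 full library of each cross, was a block. Maternal and paternal reads used the effective library sizes of the totals. The ratio test fitted 8 parental columns with library, ecotype, parent and parent by preparation. The tests were first checked on simulated data. Intervals cover counting error only.

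The comparison, gene lists and named genes were chosen with earlier results of these data known. Named genes were list members, the 10 called genes of smallest p per direction and test whose preparations did not overlap, the 10 of highest level, and genes with a paternal call; some genes that this rule names are not reported here, and a few others were chosen after their values were seen. Alternatives were DESeq2 1.42.0, other library sets, no filter, other scaling and leaving out each library.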

Additional observations from a re-analysis of the deposited data

Results flagged for a closer look

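Several values moved one way in Col × Ler and the other way in Ler × Col, each from 1 full and 1 pure library per cross, and the difference between the crosses was not tested. As log2 ratios of CPM, full over pure, with Col × Ler first, the summed level of the cell cycle list gave −1.66 and 0.23. The sugar and nitrogen transfer list gave 0.20 and −0.02, and the commonly stable genes gave −0.01 and 0.22. The ribosomal proteins, chosen by annotation after values were seen, gave −0.70 and 0.13. Among genes, the suberin hydroxylase CYP86B1 gave −0.24 and 4.70. MUM2, which modifies seed mucilage, gave −0.80 and 0.65, and GL2, of the seed epidermis, gave −0.05 and 0.47. The hydrolase AT2G32150 gave 0.59 and −1.04.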

How the results depend on the processing

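Counts of calls (higher, lower in full) moved by over 1.5 times under several alternatives, and the cause was not tested. DESeq2 gave 560 higher on total, 481 higher on maternal, 65 and 581 on paternal reads, and 32 and 1 for the ratio. The paired analysis is the cross block: without it, 710 and 750 were called on total reads and 0 and 0 on maternal and on paternal reads, and without the ecotype term 0 and 0 for the ratio (108 at an unadjusted p under 0.05). With the LCM-titled library as pure, the counts were 0 and 0 (total), 9 and 0 (maternal), 59 and 200 (paternal), and 3 lower for the ratio. Library totals without TMM gave 1716 and 754 on total reads, and TMM on paternal reads alone gave 436 and 541. Libraries were left out within the fit that includes embryo, whose own counts were 724 and 752 (total), 672 and 530 (maternal), 161 and 809 (paternal), and 48 and 2 (ratio). Beside these, leaving out pure Col × Ler, pure Ler × Col and full Ler × Col gave, in that order, 128, 59 and 629 higher on total, 258, 123 and 509 on maternal and 35, 23 and 141 on paternal reads. The counts without full Ler × Col lay within 1.5 times of that fit, except the ratio (83 and 4). Without pure Col × Ler or pure Ler × Col the lower calls were 86 and 90 (total), 154 and 167 (maternal) and 179 and 182 (paternal), and the ratio calls were 34 and 2, and 25 and 1. Leaving out each library in turn gave 59 to 1045 higher and 86 to 1066 lower on total reads, 123 to 891 and 154 to 730 on maternal, 23 to 233 and 179 to 853 on paternal reads, and 25 to 111 and 1 to 8 for the ratio.

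Without EPR1 the maternal shares were 70.2%, 66.4%, 75.9% and 72.6%, and without the coat lists 69.4%, 66.8%, 73.3% and 71.2% (order as in the report). With TMM sizes, mean log2 ratios of summed lists turned from 0.09 to −0.19 for sugar and nitrogen transfer and from 0.10 to −0.18 for commonly stable genes. They moved to 0.26 for mucilage, −1.09 for paternally expressed imprinted genes, 0.00 for cell death and −0.86 for heat and wounding, from 0.54, −0.80, 0.29 and −0.58. Of 2007 alternative values for called gene results, 1357 kept direction and call, 647 lost the call and 3 turned, none of them past the threshold. These were paternal NAM (−0.86) and paternal SESA3 (−0.20) without full Ler × Col, and the ratio of RBL2 (−1.60) without pure Col × Ler.

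Genes whose Col and Ler transcripts do not differ are unseen. Near-identical genes make counts uncertain. With 1 library per cross and preparation, a difference between preparations in 1 cross cannot be told apart from that library.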
